A study of Mus musculus with 42 samples.

Results

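Cytoplasmic ribosomal protein genes encode the proteins of the large (Rpl) and small (Rps) subunit of the ribosome that translates nuclear-encoded mRNAs. They were chosen by gene symbol and protein-coding annotation: Rpl, Rps or Rplp followed by a number, plus Rpsa. The rule found 84 members among 50765 rows of the brain table and 83 among 27409 rows of the testes table, in which Rpl3l is not listed. The study asked what loss of PCIF1 does to mRNAs in mouse tissues. PCIF1 is the enzyme that methylates a 2'-O-methylated adenosine at the first transcribed position of an mRNA, next to the cap, to give m6Am. All KO animals descend from 1 mouse line, in which Cas9 removed a stretch of Pcif1 with the catalytic residues and left a premature stop codon. The edited embryos were B6D2F1/J hybrids, and founders were bred to C57BL/6J mice. Of 42 samples in the labels, 24 libraries of adult mice in 8 groups of 3 were analysed. Testes gave m6Am-Exo-Seq immunoprecipitates (IP) from KO and HET mice and inputs from KO and HET mice. Brain gave ribosome footprints from KO and WT mice and input RNA from KO and WT mice, taken from the same lysates. The testes control is HET, which still carries an intact Pcif1 allele, and no WT testes were in this assay. The 18 tissue RNA-seq libraries were not analysed here.

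Ribosomal proteins are made in matched amounts, and their mRNAs are among the most abundant of any growing cell. In vertebrates most of these mRNAs start with a C followed by an unbroken run of C and T (U in RNA), the TOP motif, through which mTOR signalling and the protein LARP1 regulate their translation together. PCIF1 acts on mRNAs that start with A, so an mRNA that starts with the C of a TOP motif offers it no substrate at that position. The testis also makes paralogues: Rpl10l and Rpl39l are autosomal partners of the X-linked Rpl10 and Rpl39, and the X chromosome is silenced during male meiosis.

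The annotated 5' ends show which base each mRNA is taken to start with. RefSeq starts on build GRCm38.p6 were found for 64 of the 84 members, which have 76 annotated starts. Of these starts, 14 (18.4%) were A, 22 (28.9%) C, 30 (39.5%) G and 10 (13.2%) T, against 34.4% A, 16.3% C, 35.6% G and 13.7% T over all 32851 starts of the table. A strict TOP start, C followed by at least 4 bases that are each C or T, was present at 13 member starts (17.1%), against 2.51% of all starts. Within 50 bases on either side of the start, read on the gene's strand only, a C-led run of at least 8 bases of C or T occurred at 59 member starts (77.6%), against 28.8% of all starts. The hexamer CTTTCC, which can lie inside such a run, occurred in the same window at 23 member starts (30.3%), against 4.69% of all starts. Both window searches were chosen after the sequences were seen, and an annotated start need not be the one used in testes or brain. The windows below show 15 bases before the annotated start and 15 from it, so that the start is base 16. Capitals mark the longest run of C or T. The 4 members with the lowest IP-to-input ratio in HET testes among those with an annotated start come first, then the 4 with the highest. Of these 4 highest only Rpl41 had a limma adjusted p below 0.05. Rps23 stood at a log2 value of 0.72 ± 0.426 (SE). It came to -0.92 (limma adjusted p = 0.0501) with the reads listed under its pseudogenes added.

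Rpl9 (chr5:65391417-65391446, minus strand): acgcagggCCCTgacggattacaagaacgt
Rps13 (chr7:116334176-116334205, minus strand): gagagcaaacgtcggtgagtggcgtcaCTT
Rpl10a, upstream start (chr17:28328456-28328485, plus strand): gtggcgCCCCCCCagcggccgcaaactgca
Rpl10a, downstream start (chr17:28328550-28328579, plus strand): gCTCTatttgagcgcatgcgcaaagcgctc
Rpl4 (chr9:64173372-64173401, plus strand): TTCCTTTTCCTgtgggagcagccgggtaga
Rps23 (chr13:90923107-90923136, plus strand): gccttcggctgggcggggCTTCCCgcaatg
Rpl41 (chr10:128549154-128549183, minus strand): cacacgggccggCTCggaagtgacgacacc
Rpl22l1 (chr3:28805493-28805522, plus strand): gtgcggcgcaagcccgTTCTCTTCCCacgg
Rpl10l (chr12:66284387-66284416, minus strand): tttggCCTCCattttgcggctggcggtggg

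Members whose IP-to-input ratio differed between KO and HET testes are shown next, Rplp0 and Rpl12 with the largest falls and Rpl37a and Rpl7a with the largest rises among members with an annotated start. They are followed by Rplp2, Rps27 and Rps6, which have a TOP start, and by Rpsa, which starts with A. These 2 sets were chosen after the values were seen.

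Rplp0 (chr5:115559452-115559481, plus strand): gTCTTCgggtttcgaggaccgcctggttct
Rpl12 (chr2:32961697-32961726, plus strand): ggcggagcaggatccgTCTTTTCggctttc
Rpl37a (chr1:72711245-72711274, plus strand): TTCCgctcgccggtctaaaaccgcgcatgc
Rpl7a (chr2:26910792-26910821, plus strand): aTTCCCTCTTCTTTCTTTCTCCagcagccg
Rplp2 (chr7:141447636-141447665, plus strand): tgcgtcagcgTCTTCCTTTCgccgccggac
Rps27 (chr3:90213634-90213663, minus strand): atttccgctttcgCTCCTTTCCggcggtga
Rps6 (chr4:86857353-86857382, minus strand): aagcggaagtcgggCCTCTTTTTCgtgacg
Rpsa (chr9:120127751-120127780, plus strand): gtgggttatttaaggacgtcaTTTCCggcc

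Rplp2, Rps27, Rps6 and Rpl7a carry their longest run across the annotated start itself, whereas in Rpl4 the run lies before it and in Rpl22l1 and Rps23 after it. Rpl9, Rps13 and Rpl41, which stand at opposite ends of the IP ratio, have no run longer than 4 bases in these windows.

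Values below are signals, that is, gene reads scaled by the authors with 1 factor per library, and carry no correction for gene length. Ratios of 1 gene between libraries are therefore reported, and levels of different genes are not ranked. Testes libraries held 1816830 to 6574480 reads and brain libraries an estimated 5528740 to 17443700, with the shallowest testes library in the KO IP and the shallowest brain library in the KO input. Members took 1.57 to 1.64% of the signal in KO IP, 1.35 to 1.69% in HET IP, 3.17 to 3.39% in KO testes input and 3.22 to 3.37% in HET testes input. In brain they took 0.127 to 0.143% of KO footprints, 0.113 to 0.131% of WT footprints, 0.425 to 0.440% of KO input and 0.452 to 0.454% of WT input. Pcif1 itself could not check the genotype labels, since a value over the whole gene also counts RNA outside the deletion. Its signal was 182 to 354 in KO footprints, 229 to 242 in WT footprints, 201 to 259 in KO brain input and 253 to 388 in WT brain input, and it stayed at or below 10.4 in all testes libraries. In brain the 12 haploid germ cell markers summed to at most 11.02 in any library, the 8 spermatogonial markers to between 2400 and 6997 and the 12 testes somatic markers to between 2612 and 8979. Uchl1 alone stood at 1454 to 5172 among the spermatogonial markers and Clu at 2104 to 7848 among the testes somatic markers. In brain footprints of both genotypes Dmrt1 and Stra8 were at 0, as were Cyp17a1, Hsd3b1 and Insl3. In testes the 7 neuronal markers summed to at most 71.2 and the glial markers to at most 115.

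WT footprint replicate 2 stood apart from the other WT footprint libraries. Over 80 members the median absolute log2 difference between it and the 3 KO footprint libraries was 0.24 to 0.29, and between it and the other WT libraries 0.57 to 0.65. WT replicates 1 and 3 differed by 0.26 from each other and by 0.46 to 0.75 from the KO libraries. Over 12858 other protein-coding genes the order was the same, with 0.32 to 0.34 between WT replicate 2 and KO and 0.45 to 0.50 between it and the other WT libraries. The most abundant row, CT010467.1, an rRNA gene, took 66.6 to 71.4% of the signal in KO footprints and 48.6, 73.8 and 57.4% in WT replicates 1, 2 and 3. A row annotated as a long non-coding RNA, AY036118, took 25.8% and 13.9% in WT replicates 1 and 3 and 0% in WT replicate 2 and all KO footprints. The part of this difference in the results was not tested, and the genotype comparisons of footprints were also run without WT replicate 2.

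In the testes IP, most ribosomal protein mRNAs were lower than in the input, in both genotypes. In KO testes 61 of 78 tested members were lower in IP than in input and 3 were higher, while 45.5% of all 12387 genes tested were called, 24.3% lower and 21.2% higher. In HET testes 59 of 78 were lower and 1 was higher, while 30.1% of all genes were called, 15.4% lower and 14.7% higher. A call is a limma adjusted p below 0.05, on log2(signal + 1). The median log2 difference of the members was -1.27 in KO and -1.18 in HET, against -0.07 in KO and 0.02 in HET over all genes tested. Both subunits took part: in KO 33 of 45 large subunit members were lower, with a median of -1.24, and 25 of 30 small subunit members, with a median of -1.32. The same held in HET, with 34 of 45 large subunit members lower at a median of -1.11, and 23 of 30 small subunit members at a median of -1.32. The genotypes share no library, and 51 members were lower in both, which is 83.6% of those lower in KO and 86.4% of those lower in HET. Among all 78 members tested, 75.6% were lower in HET and 78.2% in KO. Across the 78 members the log2 values of the genotypes had a Pearson r of 0.757, given as a description.

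**Figure D1:**
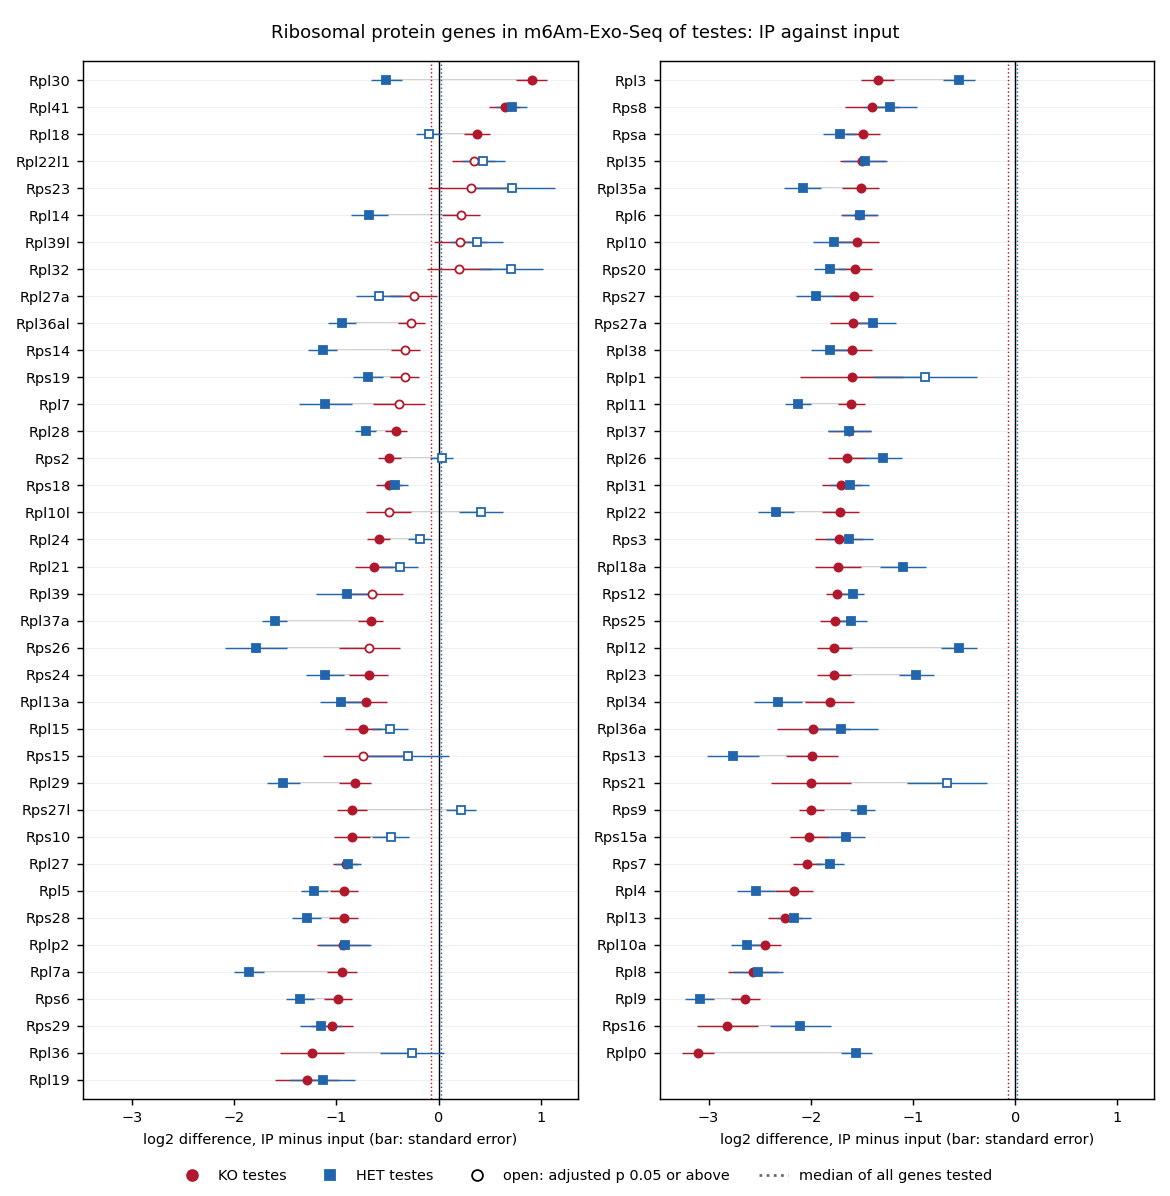
Log2 difference of IP minus input for 75 of the 78 ribosomal protein genes tested in testes, in KO (red circles) and HET (blue squares), with bars for the standard error and open symbols for an adjusted p of 0.05 or above; dotted lines mark the median of all genes tested. Most members lie left of the dotted lines in both genotypes, and Rpl41 is the only member called to the right in both.

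Rpl9, a large subunit protein, showed the widest gap in HET testes. Its signal was 606, 630 and 500.05 in KO IP and 3591, 3875 and 3343 in KO input. In HET it was 345, 479 and 415 in IP and 3086, 3665.5 and 3749 in input. No IP library came near an input library, and the log2 difference was -2.64 ± 0.143 (SE) in KO, with a limma adjusted p of 7.32e-09, and -3.09 ± 0.143 in HET, with a limma adjusted p of 3.96e-09. Among the next lowest in HET were Rps13 at -2.76, Rpl10a at -2.63, Rpl4 at -2.53, Rpl8 at -2.51, Rpl22 at -2.34 and Rpl34 at -2.32. Among the lowest in KO were Rplp0 at -3.10, Rps16 at -2.82, Rpl9, Rpl8 at -2.56, Rpl10a at -2.44, Rpl13 at -2.25 and Rpl4 at -2.17. Every one of these was called.

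Rpl41 went against the rest. It encodes the shortest ribosomal protein, a small basic peptide. Its signal was 9959, 8437 and 9414 in KO IP and 5898, 6257 and 5576 in KO input, and 8575, 14553 and 12209 in HET IP and 6811, 7070.5 and 7134 in HET input. The IP libraries lay above the inputs without overlap in both genotypes. The log2 difference was 0.65 ± 0.153 in KO and 0.72 ± 0.153 in HET, with limma adjusted p of 0.00293 and 0.00242. Rpl30 (0.91 ± 0.152, limma adjusted p = 0.000163) and Rpl18 (0.37 ± 0.126, limma adjusted p = 0.024), both large subunit proteins, were also higher in IP in KO testes. Rpl18 lost the call without the filter on low values, when scaled by all signals, with pseudogene rows added, and without KO input replicate 1, KO input replicate 3 or KO IP replicate 1.

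The acidic stalk of the large subunit recruits elongation factors, and all 3 of its genes were lower in the KO IP. Rplp0, the stalk base, stood at -3.10 in KO and -1.55 in HET, both called. Rplp1 stood at -1.599 in KO, which was called except without KO input replicate 2 or KO IP replicate 1, and at -0.88 in HET with a limma adjusted p of 0.203, from signals of only 2.99 to 26.1. Rplp2 stood at -0.93 in KO and -0.92 in HET, both called, the HET value except without HET IP replicate 1. Of other named members, Rpsa, which doubles as a laminin receptor precursor, had -1.49 and -1.72 in KO and HET. Rps6, the protein phosphorylated by S6 kinases, had -0.98 and -1.36, and Rpl3, which lies near the peptidyl transferase centre, -1.35 and -0.55. All of these were called, and Rpl3 in HET lost the call without HET input replicate 3.

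Members of the paralogue list are given beside the genes they are partners of. Rpl10l, a retrogene of Rpl10 that male mice need for meiosis, had signals of 67.4, 85.9 and 104 in KO IP and 108, 122 and 127 in KO input, and of 121, 217 and 187 in HET IP and 122, 127 and 132 in HET input. Neither genotype was called, at -0.49 (limma adjusted p = 0.0791) in KO and 0.42 (limma adjusted p = 0.164) in HET. Rpl10 was called lower in both, at -1.54 in KO and -1.77 in HET. Rpl22l1 stood at 0.34 and 0.44 in KO and HET, uncalled, and its partner Rpl22 at -1.71 and -2.34, called. Rpl39l stood at 0.21 and 0.38, uncalled, and Rpl39 at -0.65 (uncalled) and -0.89 (called). The HET call of Rpl39 was lost without the filter and in 5 of 6 fits with 1 library left out (limma adjusted p of 0.0583 to 0.145), all but that without HET IP replicate 2. Rps27l, a p53-inducible paralogue, was lower in KO at -0.84 and uncalled in HET at 0.22, while Rps27 was lower in both at -1.58 and -1.95. Rpl36al was uncalled in KO at -0.26 and lower in HET at -0.95. Its partner Rpl36a was lower in both, at -1.98 and -1.70, but 95.5% of its signal with its pseudogenes in KO IP and 91.0% in HET IP sat in pseudogene rows. With those rows added, Rpl36a came to 0.72 in KO (limma adjusted p = 0.000894) and -0.14 in HET (limma adjusted p = 0.508). A test of paralogues against partners was not run.

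Of 60 tested members with an annotated start, the 8 whose annotated starts are all A were lower in IP in both genotypes, 8 of 8 each. Their medians were -1.64 in KO and -1.61 in HET, and they were Rpl11, Rpl26, Rpl37, Rpl6, Rps12, Rps16, Rps25 and Rpsa. Of 16 members with C at the start, 15 were lower in KO and 13 in HET, at medians of -0.93 and -1.10. Of 23 with G, 13 were lower and 2 higher in KO, and 14 lower and 1 higher in HET, at medians of -0.74 and -0.95. Of 7 with T, 5 were lower in KO and 6 in HET, at medians of -0.94 and -1.6045. Of 6 whose annotated starts differ in base, 6 were lower in KO and 5 in HET, at medians of -1.66 and -1.61. In HET a median this low was therefore not particular to A starts. The 13 members with a TOP start had 12 lower in KO and 10 in HET, at medians of -0.98 and -0.92. These classes share all their libraries and were not tested against each other.

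KO testes differed from HET testes in the IP-to-input difference for 12 of 78 members, 6 lower and 6 higher in KO, while 9.97% of all genes tested were called, 6.25% lower and 3.72% higher. The median of the members was -0.03, and of all genes -0.01, so the members moved to both sides and not as a block. The authors' deposited table gives the same 12 an adjusted p below 0.05 with the same signs, for example a log2 fold of -1.53 for Rplp0 and 1.43 for Rpl30. It was computed from these same libraries.

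**Figure D2:**
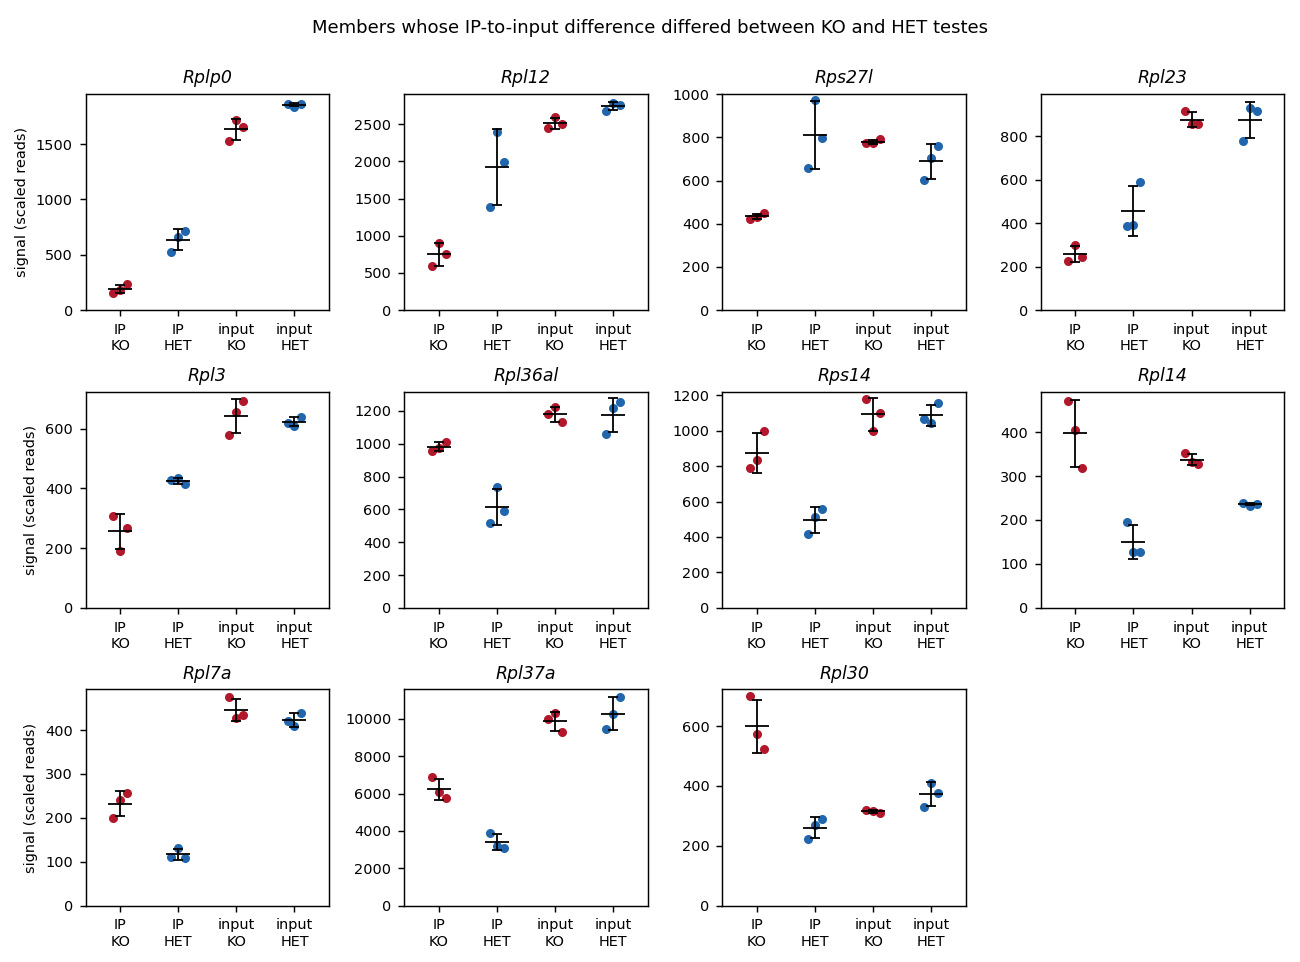
Signal in each testes library (points, KO red and HET blue) with the mean and SD of 3, for 11 of the 12 members whose IP-to-input difference differed between genotypes; the first 5 panels are lower in KO IP and the last 6 higher. Of these members only Rpl14 also differed between the inputs.

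Rplp0 had signals of 157, 183 and 234 in KO IP against 528, 662 and 717 in HET IP, and of 1529, 1717 and 1650.2 in KO input against 1865, 1838 and 1860.0 in HET input. The KO IP libraries were all under the lowest HET IP library, and the difference of -1.55 ± 0.216 had a limma adjusted p of 0.000761. Rpl12, which sits with Rplp0 at the base of the stalk, had 594, 896 and 752 in KO IP against 1387, 2389.5 and 1992 in HET IP, and the difference was -1.22 ± 0.248 with a limma adjusted p of 0.0076. The remaining stalk genes, Rplp1 and Rplp2, were not called, at -0.72 and -0.02.

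Rps27l had 424, 429 and 449 in KO IP against 658, 974 and 799 in HET IP, without overlap, a difference of -1.06 ± 0.206 (limma adjusted p = 0.00584). Rpl23, known to bind the p53 regulator MDM2, differed by -0.81 ± 0.236 (limma adjusted p = 0.0414) and Rpl3 by -0.80 ± 0.224 (limma adjusted p = 0.0343).

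Rpl30 moved most in the other direction. It had 699, 573 and 524 in KO IP against 224, 268 and 290.35 in HET IP, and 319.9, 316 and 309 in KO input against 329.7, 411 and 376 in HET input. In KO its IP was higher than its input and in HET lower (-0.51, limma adjusted p = 0.0177), and the difference was 1.43 ± 0.215 (limma adjusted p = 0.00135). Rpl37a, a zinc-binding large subunit protein, had 6873, 6074 and 5792 in KO IP against 3886, 3215 and 3078 in HET IP, a difference of 0.94 ± 0.172 (limma adjusted p = 0.00411). Rpl7a differed by 0.91 ± 0.206 (limma adjusted p = 0.0131), Rpl14 by 0.90 ± 0.258 (limma adjusted p = 0.0381), Rps14 by 0.81 ± 0.198 (limma adjusted p = 0.019) and Rpl36al by 0.68 ± 0.191 (limma adjusted p = 0.0337). Rps14 is the small subunit gene lost in the human 5q- syndrome.

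Of these 12, Rpl3, Rpl14, Rpl23, Rpl36al and Rps14 lost their call when some single library was left out, and the other 7 kept it in every such fit. The count was 7 without HET input replicate 3 or without KO input replicate 2. The annotated start was known for 8 of the 12: 5 have G, 2 have T, 1 has C and 0 have A. None of the 8 A-start members was called between genotypes, with a median difference of -0.09. With 15.4% of all 78 members and 9.97% of all genes called, 0 calls among 8 cannot tell A starts from other starts. The summed signal of the 12 haploid germ cell markers was 14486 to 14969 in KO IP, where Catsper3 was at 0, and 23177 to 45760 in HET IP, where none was, and its part in these differences was not tested. In such bulk samples fewer cells of a type and less RNA per cell cannot be told apart.

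Set directly against each other, KO IP and HET IP differed for 18 of 77 members, 8 higher and 10 lower in KO, while 26.3% of all genes tested were called, 11.5% higher and 14.8% lower. All 12 members above were among them. The others were Rpl22 at 0.90 and Rpl18 at 0.52, and Rpl10l at -1.002, Rps2 at -0.56, Rps9 at -0.55 and Rpl24 at -0.54. Rpl10l reached a limma adjusted p of 0.0194 here, and 0.0733 once its input was taken into account. Without HET IP replicate 3 the count was 9 members.

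In testes input, 7 of 77 members differed between KO and HET, while 9.33% of all genes tested were called, 3.32% higher and 6.01% lower. Rpl14 was higher, with 352, 331 and 328 in KO against 238, 233 and 237 in HET, a log2 difference of 0.51 ± 0.0953 (limma adjusted p = 0.00625). The KO libraries lay apart from the HET libraries. Lower in KO were Rpl29 at -0.46, Rps24 at -0.40, Rps18 at -0.36, Rps28 at -0.36, Rps13 at -0.32 and Rpl41 at -0.25, with limma adjusted p of 0.00326 to 0.0424. With the spread estimated over all 12 testes libraries, 0 of the 77 were called, and without HET input replicate 3 or KO input replicate 2 the count was 3 and 4. When scaled by the sum of all signals the split of the 7 calls became 3 higher and 4 lower. With 1 library left out Rps18 lost the call in 4 of 6 fits, Rpl41 in 5, Rps13 in 2 and Rps28 in 1. The X-linked Rpl10, Rpl36a and Rpl39 stood at 0.26, 0.31 and 0.43 and were not called. Rpl10l stood at -0.10 and Rpl39l at -0.25, also uncalled. The haploid germ cell markers summed to 13310 to 13738 in KO input, where Odf1 was at 0, and 15662 to 17346 in HET input. The 8 spermatogonial markers summed to 256 to 259.6 in KO and 188 to 194 in HET. The part of these shifts in the member values was not tested.

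In brain input, Rps18 was the only member that differed between KO and WT, 1 of 81, while 0.255% of all 15298 genes tested were called, 0.176% higher and 0.0784% lower. Rps18 is a protein of the head of the small subunit. Its signal was 170.3, 162 and 160.1 in KO against 446, 435 and 421 in WT, a mean of 164 ± 5.35 in KO and 434 ± 12.2 in WT (SD, n = 3 each). The groups lie far apart beside their spread, and the log2 difference was -1.40 ± 0.0936 with a limma adjusted p of 0.00346. It was called with every other setting and with any single library left out. Rps18 lies on chromosome 17, and the other 6 members tested there ranged between -0.10 and 0.15 in brain input.

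**Figure D3:**
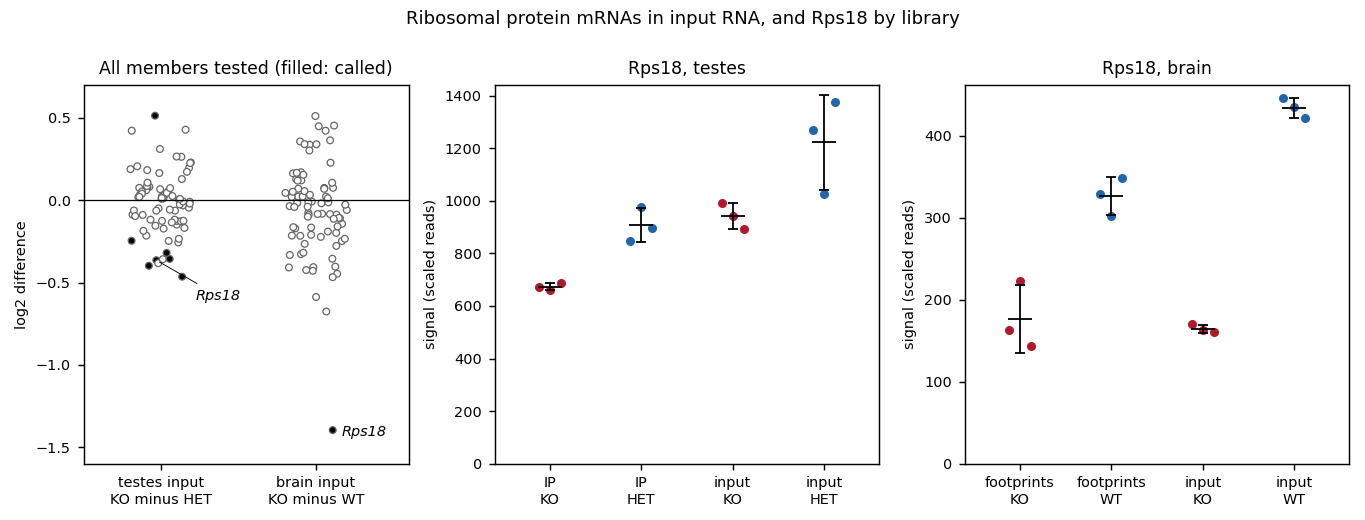
Left, log2 difference between genotypes in input RNA for every member tested in testes and in brain, with called members filled; middle and right, Rps18 signal in each library with the mean and SD of 3. Rps18 is the lowest point in brain input, and its KO libraries lie below the control libraries in every fraction of both tissues.

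Rps18 was lower in KO in every fraction measured, with calls in the 2 inputs only. Brain footprints held 163, 223 and 143 in KO against 329, 302 and 348 in WT, without overlap, at -0.90 ± 0.211 and a limma adjusted p of 0.319. WT replicate 2 sat with the other WT libraries here, and without it the value was -0.96 (limma adjusted p = 0.0559). Testes input held 993, 943 and 894 in KO against 1269, 1025 and 1376 in HET, and testes IP 672, 661 and 688 in KO against 849, 978 and 895 in HET. Part of the Rps18 signal in KO brain lay in pseudogene rows: 9.34% in KO input and 11.8% in KO footprints, against 0.143% in WT input and 0.106% in WT footprints. With those rows added the brain input difference was -1.26 (limma adjusted p = 0.0095). The other 5 members on chromosome 17 tested in testes input ranged between -0.36 (Rps28) and 0.23. All 9 glial markers summed to 24035 to 26347 in KO brain input and 16433 to 17150 in WT brain input, with none at 0, and the part of this in the Rps18 result was not tested.

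In brain, ribosome footprints of most members were lower than their input RNA, in both genotypes. In KO 53 of 81 members were lower and 2 higher, while 52.4% of all 16527 genes tested were called, 28.4% lower and 24% higher. In WT 50 were lower and 3 higher, while 54.3% of all genes were called, 29.1% lower and 25.2% higher. The medians of the members were -1.07 in KO and -1.10 in WT, against -0.09 in both over all genes. The 43 members lower in both make up 81.1% of those lower in KO and 86% of those lower in WT. Among all 81 members tested, 61.7% were lower in WT and 65.4% in KO. Footprints come only from the translated part of an mRNA and input from its whole length, and no value was corrected for that. When scaled by the sum of all signals, rRNA included, the median of all genes moved to -0.93 in KO brain footprints against input and to -1.18 in WT brain footprints against input, and that of the members to -1.90 and -2.16.

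**Figure D4:**
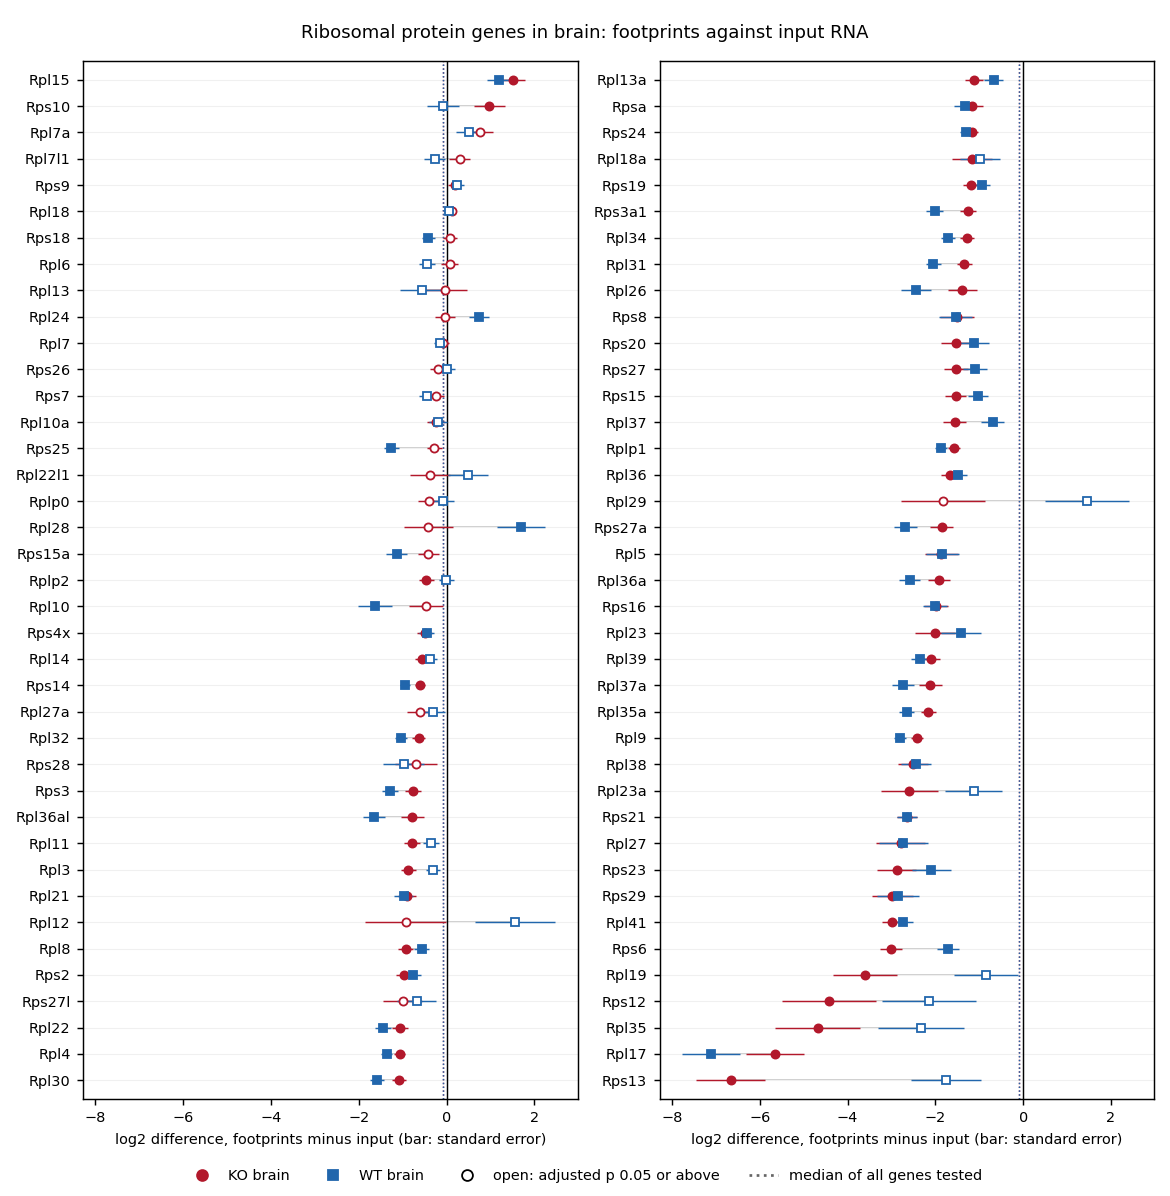
Log2 difference of footprints minus input for 78 of the 81 ribosomal protein genes tested in brain, in KO (red circles) and WT (blue squares), with bars for the standard error and open symbols for an adjusted p of 0.05 or above; the dotted lines mark the median of all genes tested. Most members lie left of those lines, and Rpl15 is the only member called to the right in both genotypes.

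Rpl41 was low in both genotypes, and no pseudogene rows are named for it. Its signal was 166, 124 and 78.2 in KO footprints against 880.4, 1026 and 902 in KO input, and 108, 142 and 124 in WT footprints against 906, 771 and 825 in WT input. The groups are far apart, at -2.98 ± 0.228 in KO (limma adjusted p = 1.06e-06) and -2.73 ± 0.228 in WT (limma adjusted p = 1.96e-06). Rps29, a zinc-binding small subunit protein, stood at -2.98 in KO and -2.85 in WT, and Rpl37a at -2.12 and -2.74. Rpl9 stood at -2.80 in WT, with a limma adjusted p of 2.39e-08. Further low members in WT were Rpl27 at -2.73, Rps27a, made as a fusion to ubiquitin, at -2.69, and Rpl35a at -2.66. Among the lowest in KO were Rps13 at -6.67, Rpl35 at -4.69, Rps12 at -4.42, Rpl19 at -3.60 and Rps6 at -3.005, each from KO footprint signals under 100. With pseudogene rows added, Rps13 at -0.13, Rpl19 at -0.33 and Rps6 at -0.28 were no longer called in KO (limma adjusted p of 0.556, 0.263 and 0.0522), while Rpl35 at -4.69 and Rps12 at -4.33 still were. Rpl17 was listed at 0 in all 3 WT footprint libraries and at 0, 7.90 and 5.71 in KO footprints, against 110.3 to 254 in the inputs. With pseudogene rows added it was called lower in both, at -1.70 in KO and -1.98 in WT.

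Rpl15, another large subunit protein, was higher in footprints in both genotypes, at 1.51 ± 0.276 in KO (limma adjusted p = 0.000799) and 1.19 ± 0.276 in WT (limma adjusted p = 0.00358). Its signal was 887, 975 and 702 in KO footprints against 348, 254 and 296.5 in KO input, and 989, 452 and 1049 in WT footprints against 356, 329 and 338 in WT input. Rps10, which is ubiquitinated when ribosomes collide, was called higher in KO, and Rpl28 and Rpl24 in WT, and the difference between the genotypes was not called for any of the 3. The Rps10 call was lost without the filter, with either other scaling and in each of 6 fits with 1 library left out (limma adjusted p of 0.0592 to 0.124). The Rpl28 call was lost when scaled by all signals and without WT input replicate 3, WT footprint replicate 1 or WT footprint replicate 3. The Rpl24 call was lost with protein-coding scaling and without WT input replicate 1 or WT footprint replicate 3, and its value was -0.33 when scaled by all signals. Rpl15 in WT was also uncalled when scaled by all signals, at 0.12 (limma adjusted p = 0.718). The stalk genes were mixed. Rplp1 was lower in both, at -1.58 in KO and -1.88 in WT, Rplp2 was called in KO at -0.46 and uncalled in WT at -0.00, and Rplp0 was uncalled at -0.40 and -0.09. The KO call of Rplp2 was lost without the filter and in 5 of 6 fits with 1 library left out, all but that without KO footprint replicate 2 (limma adjusted p of 0.0714 to 0.137).

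Reads of several members were listed under processed pseudogenes, copies of the mRNA elsewhere in the genome. The brain table has 416 pseudogene rows named for 68 members. Of the summed signal of members and these rows, pseudogenes took 26.7 to 27.1% in KO footprints, 20.2, 26.2 and 25.2% in WT footprint replicates 1, 2 and 3, 12.6 to 14.7% in KO input and 11.99 to 13.8% in WT input. In footprints 18 members in KO and 20 in WT had over 50% of their signal there, against 6 members in KO input and 6 in WT input. In testes the share stayed at or below 4.52% in every library, but single members differed. Over 50% of the signal sat there for 6 members in KO IP, 5 in HET IP and 7 in each input. With these rows added, Rpl36a was called in the difference between KO and HET testes, at 0.86 (limma adjusted p = 0.0174). It was also called between the IPs, at 0.99 (limma adjusted p = 0.00329). Members called in that difference as listed kept their call. With the pseudogene rows added to each member, 46 members were lower and 5 higher in KO brain and 44 lower and 4 higher in WT, at medians of -0.69 and -0.68. Rpl41, Rps29, Rps21 and Rpl37a kept values of -2.12 to -2.98 in both genotypes. Rpl15 came to 1.002 (limma adjusted p = 0.0164) in KO and 0.61 (limma adjusted p = 0.113) in WT. Rpl28, at 1.44 in KO and 2.06 in WT, and Rpl7a, at 0.75 and 0.86, were then called higher in both genotypes.

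**Figure D5:**
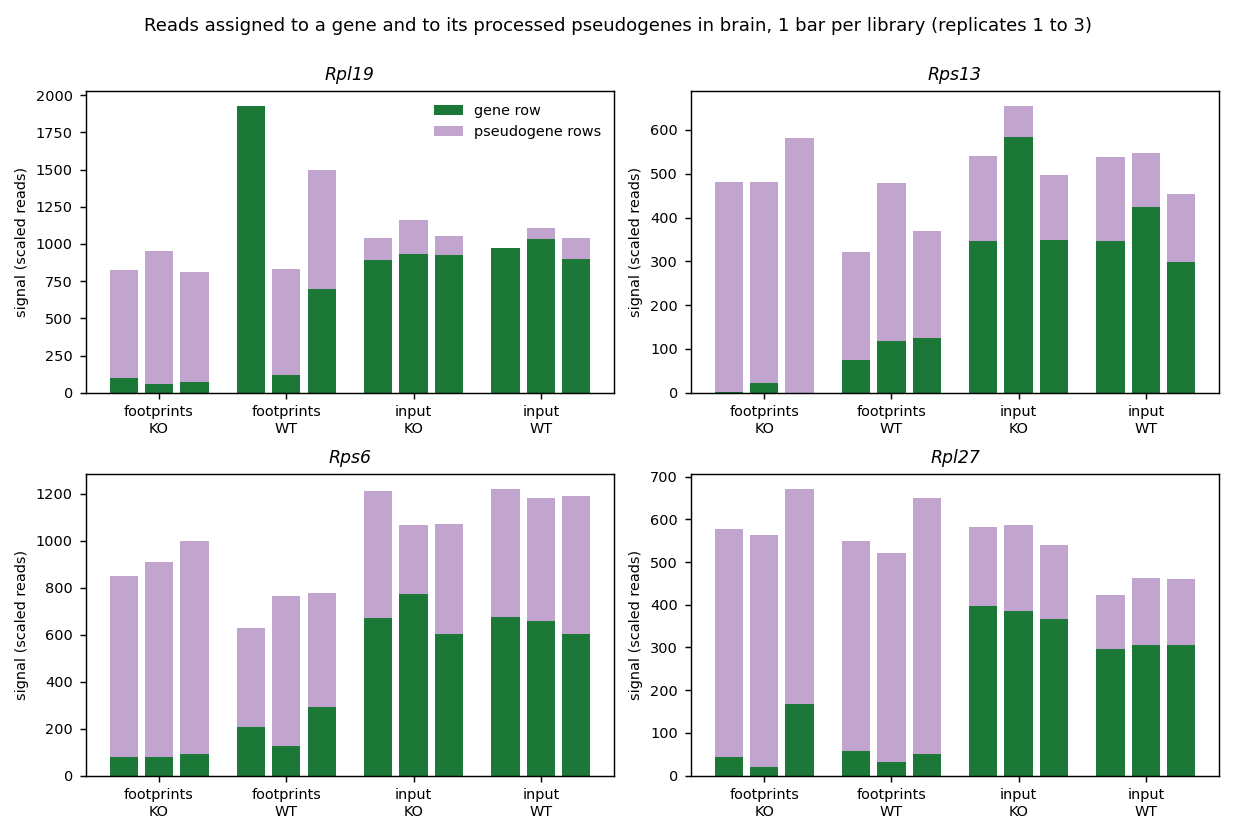
Signal listed under the gene itself (green) and under its processed pseudogenes (purple) for 4 members in each brain library, replicates 1 to 3 left to right. In footprints the gene's own part varies far more between libraries than the total, as for Rps13 and Rpl27.

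Rpl19, a large subunit protein, shows how the split varies. Its own row held 98.2, 56.3 and 74.8 in KO footprints against 1926, 116 and 694 in WT footprints, and 891 to 930.2 in KO input against 899 to 1032 in WT input. Its pseudogenes took 91.1% in KO footprints and 35.8% in WT footprints. Rps13 held 1.19, 21.5 and 0.376 in KO against 75.02, 117 and 124 in WT, without overlap, and its pseudogenes took 98.5% in KO and 72.9% in WT. With its pseudogenes added the difference of Rps13 footprints was 0.42 (limma adjusted p = 0.471). Rps6 held 79.7, 79.2 and 93.0 in KO against 206, 124 and 291 in WT, and came to 0.35 (limma adjusted p = 0.468) with its pseudogenes added. Without WT footprint replicate 2, Rps13 stood at -4.58 (limma adjusted p = 0.0745) and Rps6 at -1.54 (limma adjusted p = 0.0213) as listed, and at 0.58 and 0.39, both uncalled, with pseudogenes added.

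Between KO and WT brain, 0 of 80 members differed in footprints by limma and 0 of 81 in the footprint-to-input ratio, the usual measure of translational efficiency. At an unadjusted limma p below 0.05 there were 17 members in each. Over all genes tested there were 1546 of 14377 in footprints and 1616 of 16527 in the ratio. Of all genes tested 0.223% (0.146% higher, 0.0765% lower) were called in footprints and 0.188% (0.0908% higher, 0.0968% lower) in the ratio, and the lowest adjusted p of a member was 0.275 and 0.226. Without WT footprint replicate 2, 17 members differed in footprints, 6 higher and 11 lower in KO, and 20 in the ratio, 10 higher and 10 lower. Of the WT footprint libraries, replicate 2 lies nearest the KO libraries in these same values. Leaving it out therefore favours calls between genotypes, and the gain is not read as a result. In that ratio test Rps10 stood at 1.55, Rpl19 at -3.86 and Rpl28 at -2.90, as listed. With all 12 libraries they stood at 1.06, -2.76 and -2.12 as listed. With pseudogene rows added to those 12 libraries they came to 1.05, -0.70 and -0.61. None of these values from 12 libraries was called. Calls over all genes were more numerous as well. They came to 468 higher and 488 lower of 14120 for KO brain footprints against WT brain footprints, and to 437 higher and 437 lower of 16424 for KO brain footprint to input against WT brain footprint to input. With the spread taken over all 12 brain libraries, Rps18, Rps6 and Rps13 were called lower in KO footprints. Without KO footprint replicate 2, Rps13 was called lower in the ratio. The authors' deposited table lists 3 members below 0.05, with log2 folds of 0.98 for Rps25, -3.50 for Rpl19 and -1.39 for Rps6. This count is given without the share over all genes and is not read as a result about the members. With pseudogene rows added, the limma difference in the ratio was 0.79 for Rps25, -0.70 for Rpl19 and 0.45 for Rps6. Their limma adjusted p were 0.491, 0.528 and 0.469.

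Replicates of some members lay far apart in footprints. The SD over 3 libraries exceeded 1 on the log2 scale for 8 members in KO footprints and 9 in WT footprints and for 0 in each of the other 6 groups. Among other protein-coding genes it did so for 5.82% in KO footprints and 8.21% in WT footprints. The median SD of members was 0.241 in KO footprints and 0.4005 in WT footprints, against 0.242 and 0.355 for other protein-coding genes. Rps10, for instance, held 742, 714 and 724 in KO footprints against 191, 733 and 368 in WT footprints, where replicate 2 alone lay with the KO libraries.

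Members lower in 1 assay were lower in the other about as often as all members were. Of 76 members tested in both, 37 were lower in HET testes IP and in WT brain footprints. That is 62.7% of the 59 lower in testes, beside 61.7% of all members tested in WT brain footprints. It is 78.7% of the 47 lower in brain, beside 75.6% of all members tested in HET testes IP. Across those 76 the Pearson r was 0.174, as a description over different assays and tissues. Rpl41 was higher in the testes IP and lower in brain footprints, while Rpl9 was lower in both.

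Ribosomal proteins with other names moved with the members only in part. Rack1, a scaffold on the small subunit, was lower in testes IP at -1.79 in KO and -1.22 in HET. Fau, made as a fusion to a ubiquitin-like protein, was uncalled in the IP at -0.29 and -0.06 and lower in brain footprints at -1.78 in KO and -1.85 in WT. Of 17 other TOP mRNAs tested in testes, 6 were lower and 2 higher in the KO IP, and 4 lower and 3 higher in the HET IP. Among them Eef1a1, the main elongation factor, stood at -2.21 in KO and -2.54 in HET, and Eef1d at 1.51 in KO. Eef2 and Eef1d had a higher ratio in KO than in HET, by 0.95 and 0.88. In brain footprints 6 of 18 were lower and 4 higher in KO, and 5 lower and 4 higher in WT, with Tpt1 at -1.87 and -1.38 and Pabpc1, the poly(A)-binding protein, at 1.17 and 0.73. Over all genes tested, 24.3% were lower and 21.2% higher in the KO IP, and 15.4% lower and 14.7% higher in the HET IP. In brain footprints the shares over all genes were 28.4% lower and 24% higher in KO, and 29.1% lower and 25.2% higher in WT. The list was not tested against all genes.

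Mitochondrial ribosomal proteins, which are made from nuclear mRNAs by cytoplasmic ribosomes, took another course in brain. In footprints 35 of 78 were higher and 9 lower in KO, and 34 higher and 8 lower in WT, at medians of 0.43 and 0.50. In the testes IP 38 of 64 were lower and 5 higher in KO, and 19 lower and 4 higher in HET, and 9 had a lower ratio in KO, with Mrps31 at -2.22. Of 23 ribosome biogenesis genes 4 were lower and 3 higher in KO IP, and 2 lower and 3 higher in HET IP. In brain footprints 14 of 27 were higher and 0 lower in KO, and 17 higher and 1 lower in WT. Of 15 genes of the mTOR and LARP1 pathway, 6 were higher and 1 lower in KO IP, among them Larp1 at 1.17, and 2 higher and 1 lower in HET IP. In brain footprints 5 of 16 were higher and 4 lower in KO, and 5 higher and 6 lower in WT.

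Untested members lay at or near 0. In brain these were Rpl10l, listed at 0 in all 12 libraries, Rpl39l at up to 4.23 and the muscle paralogue Rpl3l at up to 3.81. In testes they were Rpl17, Rpl23a, Rpl7l1, Rps3a1 and Rps4x, with signals of at most 10.48. Of the signal of Rpl17 with its pseudogenes, 98.5% in KO testes input and 100% in the other 3 testes groups sat in pseudogene rows.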

How the data were processed

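The authors deposited 1 table per assay. Each holds a signal per gene and library, gene reads divided by a library factor, together with the authors' log2 fold changes and adjusted p-values. The tools listed, without roles, per the submitters' processing notes, are DESeq2 1.25.10, DESeq, STAR, Salmon 0.12.0 and R 3.6.2. For genome build, annotation and strand setting the entry is: not given in the sources used here. Signals were whole multiples of 1 read (tolerance 0.01 reads) for 100% of the values in testes, and for 7.74 to 15.6% in brain, where depth is therefore an estimate and no count model was run. Members and gene lists were chosen with earlier results of these data known.

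The test was limma 3.58.1 in R 4.3.3 (lmFit and eBayes with a trend) on log2(signal + 1), which understates changes of low genes, over genes that reached 10 in 3 or more of the fitted libraries, with Benjamini-Hochberg adjustment and a threshold of 0.05. IP against input, footprints against input and the differences of these between genotypes used the 12 libraries of an assay, and direct genotype comparisons used 6. Checks on simulated data preceded the real fits. Alternatives were pseudocounts of 0.5 and 10, no filter, scaling by all signals or by protein-coding signals, the spread over 12 libraries, each library left out, and edgeR 4.0.16 and DESeq2 1.42.0 on the recovered testes reads. Summing pseudogene rows with their parent gene, also with WT footprint replicate 2 left out, was chosen after seeing the data. Footprint and input libraries entered the fits as independent samples. For testes, 704 rows that carry a gene ID without a gene name stayed in the limma fits and were left out of edgeR and DESeq2. No value column was left unmapped.

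Members named are the 8 highest and 8 lowest called per comparison, the stalk and paralogue list, every member called in the rarer direction, and up to 3 called genes of each other list with Fau, Rack1, Eef1a1, Eef2, Tpt1 and Pabpc1. A few genes that this rule names are not reported here, though counts and medians include them. The chromosome 17 neighbours, pseudogene examples and rRNA rows were chosen after their values were seen. Replicates are separate samples in the labels, with brains from 3 mice per genotype. The 5' windows come from RefSeq.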

Additional observations from a re-analysis of the deposited data

Results flagged for a closer look

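The IP-to-input difference differed between KO and HET testes, by a test of the difference itself, for 12 members, of which 11 are given here, with log2 values of KO minus HET. Lower in KO were Rplp0 at -1.55, Rpl12 at -1.22, Rps27l at -1.06, Rpl23 at -0.81 and Rpl3 at -0.80. Higher in KO were Rpl36al at 0.68, Rps14 at 0.81, Rpl14 at 0.90, Rpl7a at 0.91, Rpl37a at 0.94 and Rpl30 at 1.43. No group has more than 3 libraries, so no single library was tested as an outlier.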

How the results depend on the processing

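No paired analysis was possible because the labels carry no replicate numbers and tie no footprint library to the input of its lysate. Leaving out 1 library at a time gave 62 to 66 called members for KO testes IP against input, 54 to 63 for HET, 7 to 18 for their difference, 9 to 22 for KO IP against HET IP, 3 to 9 for testes input and 1 for brain input. It gave 50 to 53 for KO brain footprints against input, 46 to 53 for WT, 0 to 17 for footprints between genotypes and 0 to 20 for the footprint-to-input ratio, where 17 and 20 are without WT footprint replicate 2 and 1 is without KO footprint replicate 2. The low counts were 7 without HET input replicate 3 or KO input replicate 2, 9 without HET IP replicate 3, and, for testes input, 3 without HET input replicate 3 and 4 without KO input replicate 2. With the spread over 12 libraries, 33 members differed between KO IP and HET IP, 0 between testes inputs and 3 between brain footprints. All counts in this paragraph are of members alone. Calls over all genes change between fits too, as without WT footprint replicate 2, so a changed count is not read as particular to the members. Scaling by all signals split the 18 calls between IPs into 10 higher and 8 lower, against 8 and 10. For the difference, edgeR called 13 members and DESeq2 16. Without the filter Rpl3, Rpl14, Rpl23 and Rpl36al lost their call there. Signs reversed for Rpl36a in KO IP (0.72) and for Rpl27 in WT brain footprints (0.35) with pseudogene rows added, and for Rpl24 in WT brain footprints (-0.33) when scaled by all signals; the cause was not tested. Other calls of the named members kept their sign in the fits that tested them. Low signals limit Rplp1 in testes and Rps13, Rpl35 and Rps12 in brain footprints.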
